A study of Mus musculus with 51 samples.

Results

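Kif11, Mcm7, Plk1, Aurka, Ccnd1, E2f4 and Cep97 are 7 genes of the cell division cycle that carry probes on a spotted mouse array. All spots whose annotated symbol is one of these were taken: 16 spots, which form 8 of the 7920 probes that are not controls, because Kif11 has a pair of separate probes. The array names 4200 genes by a single symbol. They were chosen with values of these arrays in view. The difference between the arrays with the largest spike and those with none led to Kif11, Mcm7, Plk1, Ccnd1 and E2f4, and the values behind the choice of Aurka and Cep97 are not recorded. What those arrays show is therefore given as a description, with no test.

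The study hybridised 51 arrays with a pair of dyes. Both channels of an array held RNA of CRL1606, a hybridoma line made by fusing BALB/c spleen cells with a BALB/c myeloma, which secretes an antibody against human fibronectin and was grown in suspension without serum. RNA of 100 genes was added to one channel and RNA of another 100 to the other, at one amount per gene. The arrays with 0 pmol, called self-hybridisations in their titles, and those with 0.05, 0.1, 0.25, 0.5 and 0.75 pmol number 6 each, and those with 0.025, 0.15, 0.2, 1 and 2 pmol number 3 each. The sources used here give no list of the spiked genes, so it is not known whether any of the 7 was among them. The labels do not say whether replicate arrays stand for separate cultures, and the p-values then reflect only array-to-array spread, possibly technical.

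The cell cycle is driven by cyclins and their kinases. D-type cyclins such as Ccnd1 and the E2F transcription factors govern entry into DNA synthesis, the MCM helicase opens the DNA for copying, and Aurora and Polo kinases with kinesin motors build the spindle on the centrosomes. Hybridomas inherit continuous division from their myeloma parent. A ratio between channels with the same RNA says nothing of how strongly such a gene is expressed, and markers of B cells or plasma cells cannot be checked with it. The values below are log2 ratios of an array after its median was subtracted, and a probe's value is the mean of its pair of spots. No source used here says which channel stands in the numerator, so ratios are called positive or negative only.

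The arrays measured between 8376 and 16869 of 16896 spots. The 3 arrays at 1 pmol missed 13.45% to 50.43% of their spots, and the others missed 0.16% to 9.22%. Across probes, paired spots of an array correlated at 0.887 in the median array and at 0.2 on the lowest, 0.75 pmol replicate 4. Before centring the array medians lay between -3.32 and 0.95.

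On the 42 arrays of 0.025 to 1 pmol a straight line was fitted to each probe. Its level is the fitted log2 ratio at the mean log2 amount, and its slope is the change in log2 ratio per doubling of the amount. The arrays at 0 and 2 pmol did not enter either test. Slopes over all spiked arrays, these 42 included, were known when the genes were chosen, so neither test is independent of that choice. In limma with Benjamini-Hochberg adjustment over 7920 probes, a level passed 0.05 for 48.8% of probes and a slope for 18.8%. Of the 8 cell cycle probes, 5 passed for the level: E2f4, Aurka, Mcm7 and the Kif11 probe at spot 12724 with a positive level, and Ccnd1 with a negative one. For the slope 5 passed as well, the same Kif11 probe with a positive slope and Plk1, Cep97, Aurka and Ccnd1 with negative ones. Over all probes 17.3% had a positive and 31.5% a negative level, 9.86% had a positive and 8.96% a negative slope, and the median level was -0.08 and the median slope -0.01.

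**Figure D1:**
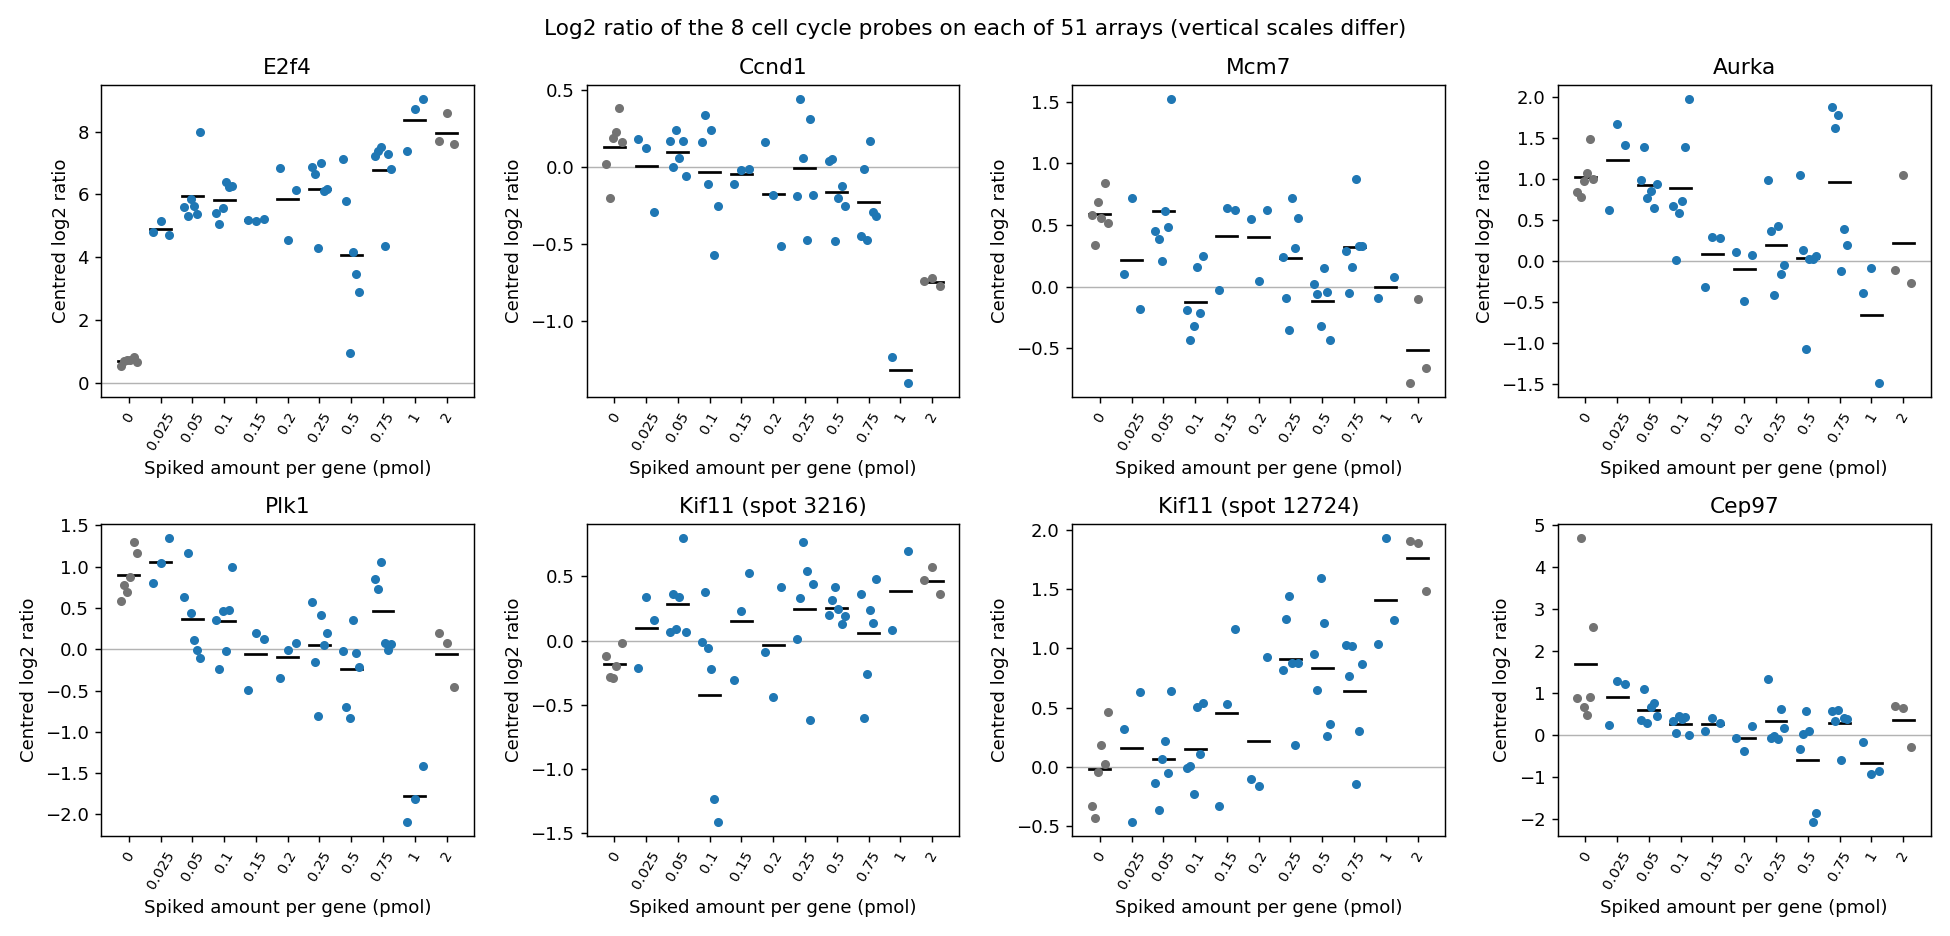
Log2 ratio after centring (vertical axis, scales differ) on each array for the 8 probes, by spiked amount per gene in pmol (horizontal axis). Points are arrays, black lines are means, grey points are the 0 and 2 pmol arrays and blue points the 42 arrays that entered the tests. E2f4 lies near 0.70 at 0 pmol and above 4 on most spiked arrays, and the Kif11 probe at spot 12724 lies near 0 at 0 pmol and between 1.48 and 1.9 at 2 pmol.

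**Figure D2:**
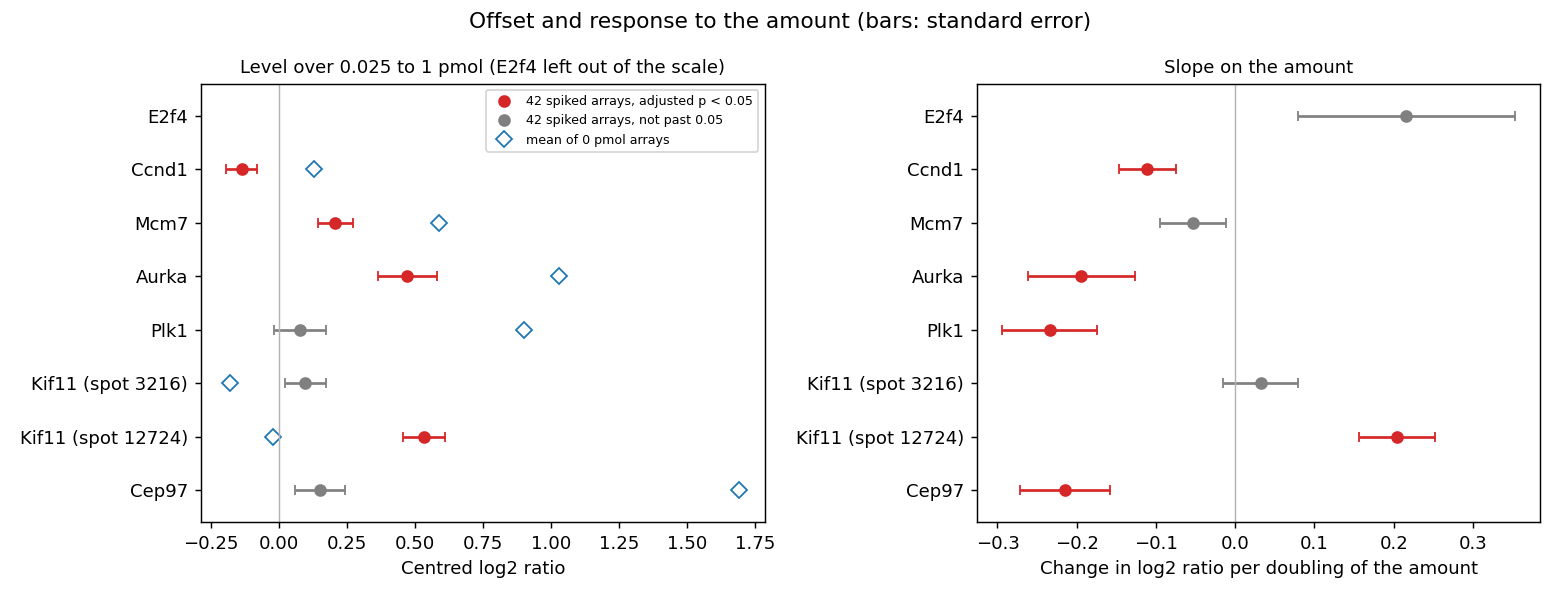
Level (left, centred log2 ratio) and slope (right, log2 ratio per doubling of the amount) over the 42 arrays, as circles with standard errors, red where the adjusted p in limma was under 0.05. Open diamonds are the means of the 0 pmol arrays. E2f4, at 5.85, is left out of the left scale.

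E2f4 encodes an E2F transcription factor that binds with pocket proteins and represses cell cycle genes in resting cells. On the spiked arrays it had the highest mean of the 8 probes at every amount, while at 0 pmol its mean was below those of Cep97, Aurka and Plk1. At 2 pmol its log2 ratio was 7.69, 8.6 and 7.61, against 0.53, 0.7, 0.72, 0.72, 0.83 and 0.66 at 0 pmol. The amounts did not overlap, and the 2 pmol arrays had a mean of 7.96 ± 0.55 (SD, n = 3), the 0 pmol arrays one of 0.70 ± 0.10 (SD, n = 6). That difference of 7.27 is part of what chose the gene.

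The high ratio of E2f4 was already there at the smallest amount. At 0.025 pmol it was 4.8, 5.15 and 4.7, so that all 3 arrays lay above every array at 0 pmol. The means were 4.88 (0.025 pmol), 5.96 (0.05), 5.83 (0.1), 5.18 (0.15), 5.84 (0.2), 6.18 (0.25), 4.07 (0.5), 6.77 (0.75) and 8.38 (1). They did not follow the amount in order, and that at 0.5 pmol was the lowest. In the deposited values, before centring, the mean at 0.5 pmol was 4.15 and not the lowest. It lay above those at 0.025 pmol (3.62), 0.15 pmol (4.08) and 0.2 pmol (3.85). The means at the other spiked amounts were higher, from 4.33 at 0.05 pmol to 7.38 at 2 pmol. What set 0.5 pmol low was not tested.

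The level of E2f4 over 0.025 to 1 pmol was 5.85 ± 0.22 (SE, n = 42, limma adjusted p 4.13e-27), the fifth highest of all probes tested. The ratio was positive on 42 of 42 arrays, which held for 1.64% of all probes. The slope was 0.22 ± 0.14 per doubling (SE, limma adjusted p 0.266) and did not pass. With replicates 1 to 3 only it was 0.46 (limma adjusted p 0.0253) and with replicates 4 to 6 only it was -0.35, which did not pass, and the difference between those sets was not tested.

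Replicates of E2f4 were farthest apart at 0.5 pmol, with 7.13, 5.79, 0.94, 4.18, 3.46 and 2.9 in replicates 1 to 6. Replicates 3 to 6 were low. Across the 42 arrays the 5 whose deposited median lay above 0 (0.17 to 0.95) were also 5 of the 6 with the lowest E2f4 ratio. After centring, these 5 gave 0.94 to 4.29 and the other 37 had a median of 6.14 with a lowest value of 4.37. The 5 arrays are 0.5 pmol replicates 3 to 6 and 0.25 pmol replicate 3, and their deposited E2f4 values were 1.13, 4.38, 4.08, 3.87 and 4.83. The paired spots of E2f4 correlated at 0.97 over arrays. They differed on 0.25 pmol replicate 3, with 6.13 and 2.45, and on 0.5 pmol replicate 3, with 0.4 and 1.48. The 8 probes printed around E2f4 had levels of -2.24 to 0.4 and slopes of -0.07 to 0.02.

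Ccnd1, cyclin D1, activates the kinases Cdk4 and Cdk6 at the start of the cycle. Its ratios stayed near the array median except at the highest amounts. They were -0.74, -0.72 and -0.77 at 2 pmol, against 0.02, -0.2, 0.19, 0.23, 0.38 and 0.16 at 0 pmol. All arrays at 2 pmol lay below all at 0 pmol, with a 2 pmol mean of -0.74 ± 0.03 (SD, n = 3) and a 0 pmol mean of 0.13 ± 0.20 (SD, n = 6).

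Between these amounts the means of Ccnd1 were 0.00 (0.025 pmol), 0.1 (0.05), -0.03 (0.1), -0.05 (0.15), -0.17 (0.2), -0.01 (0.25), -0.16 (0.5) and -0.23 (0.75). At 1 pmol 2 of the 3 arrays measured it, with -1.23 and -1.4, both below every array of a lower amount. The paired spots of 1 pmol replicate 1 read -0.48 and -1.98, and the value of replicate 3 rested on 1 spot. The level was -0.14 ± 0.06 (SE, n = 41, limma adjusted p 0.0456) and the slope -0.11 ± 0.04 (SE, limma adjusted p 0.0279). Neither call held without the 1 pmol arrays, where the level was -0.08 (limma adjusted p 0.154) and the slope -0.06 (limma adjusted p 0.175). The level was also lost without any 1 of 22 single arrays, most of them at other amounts, with limma adjusted p up to 0.0833. The paired spots of Ccnd1 correlated at 0.46 over the arrays.

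Mcm7, a subunit of the helicase that unwinds DNA ahead of replication, passed for the level and not for the slope. Its ratios at 2 pmol were -0.78, -0.1 and -0.66, against 0.58, 0.34, 0.69, 0.56, 0.84 and 0.52 at 0 pmol. The 2 pmol arrays lay below all of the 0 pmol arrays, with a 2 pmol mean of -0.51 ± 0.36 (SD, n = 3) and a 0 pmol mean of 0.59 ± 0.17 (SD, n = 6). On the arrays of 0.025 to 1 pmol it ranged from -0.43 to 1.52. Its means there were highest at 0.05 pmol (0.61) and lowest at 0.1 pmol (-0.12), next to each other in amount.

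The level of Mcm7 was 0.21 ± 0.07 (SE, n = 41, limma adjusted p 0.00776). With replicates 1 to 3 only it was 0.11 (limma adjusted p 0.226), and with the 31 arrays whose paired spots correlated at 0.8 or more it was 0.14 (limma adjusted p 0.106). With 1 mean per amount it was 0.21 (limma adjusted p 0.106). The slope was -0.05 ± 0.04 (SE, limma adjusted p 0.381).

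Aurka and Plk1 are mitotic kinases. Aurora A matures the centrosomes and activates Polo-like kinase 1, which drives entry into mitosis and spindle assembly. Both were positive on every array without spike. Aurka was -0.11, 1.05 and -0.27 at 2 pmol, against 0.85, 0.78, 0.98, 1.08, 1.49 and 1 at 0 pmol. The amounts overlapped in 1 array at 2 pmol, and the 2 pmol mean was 0.22 ± 0.72 (SD, n = 3) and the 0 pmol mean 1.03 ± 0.25 (SD, n = 6). In all, 0.58% of all probes had a mean at 0 pmol as high as that of Aurka.

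Plk1 was 0.2, 0.08 and -0.46 at 2 pmol, against 0.59, 0.78, 0.7, 0.88, 1.3 and 1.17 at 0 pmol. Here the amounts did not overlap. The 2 pmol mean was -0.06 ± 0.36 (SD, n = 3) and the 0 pmol mean 0.90 ± 0.28 (SD, n = 6), and 1.12% of probes had a 0 pmol mean as high. At 0 pmol, replicates 4 to 6 had a mean of 1.11 for Plk1 and 1.19 for Aurka, and replicates 1 to 3 had means of 0.69 and 0.87.

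The means of Aurka were near 1 up to 0.1 pmol and near or below 0 at most amounts above it. Its means were 1.24 (0.025 pmol), 0.94 (0.05), 0.9 (0.1), 0.09 (0.15), -0.1 (0.2), 0.19 (0.25), 0.03 (0.5), 0.96 (0.75) and -0.65 (1). At 0.75 pmol the replicates fell apart, with 1.88, 1.63 and 1.79 in replicates 1 to 3 and -0.12, 0.39 and 0.2 in replicates 4 to 6. The level was 0.47 ± 0.11 (SE, n = 42, limma adjusted p 0.000341). The slope was -0.19 ± 0.07 (SE, limma adjusted p 0.0395). That call was lost when any 1 of 8 single arrays was left out: 0.025 pmol replicate 2 or 3, 0.05 pmol replicate 1 or 2, 0.5 pmol replicate 3, or 1 pmol replicate 1, 2 or 3 (limma adjusted p at most 0.0969).

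For Plk1 the means were 1.06 (0.025 pmol), 0.37 (0.05), 0.34 (0.1), -0.06 (0.15), -0.1 (0.2), 0.05 (0.25), -0.24 (0.5), 0.46 (0.75) and -1.78 (1). At 0.75 pmol replicates 1 to 3 gave 0.85, 0.73 and 1.06, and replicates 4 to 6 gave 0.07, -0.01 and 0.06. At 0.05 pmol they gave 0.63, 1.17 and 0.44, and 0.11, -0.01 and -0.11. At 0.1, 0.25 and 0.5 pmol these sets of replicates overlapped. The 3 arrays at 1 pmol, with -2.09, -1.82 and -1.42, lay below every other array. The level was 0.08 ± 0.10 (SE, n = 42, limma adjusted p 0.529), which did not pass. The slope was -0.23 ± 0.06 (SE, limma adjusted p 0.00719). Without the 1 pmol arrays the slope was -0.12 (limma adjusted p 0.0995) and the level 0.20 (limma adjusted p 0.036).

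Aurka and Plk1 also moved together from array to array. Pearson's r between them was 0.78 over 51 arrays, the highest of the 28 pairs of the 8 probes, and 0.79 over the 6 arrays at 0 pmol. The probes lie in different print blocks and share the arrays and their centring. Aurka lay above Plk1 on 41 of 51 arrays. The lowest correlation was -0.55, between Ccnd1 and the Kif11 probe at spot 12724.

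**Figure D3:**
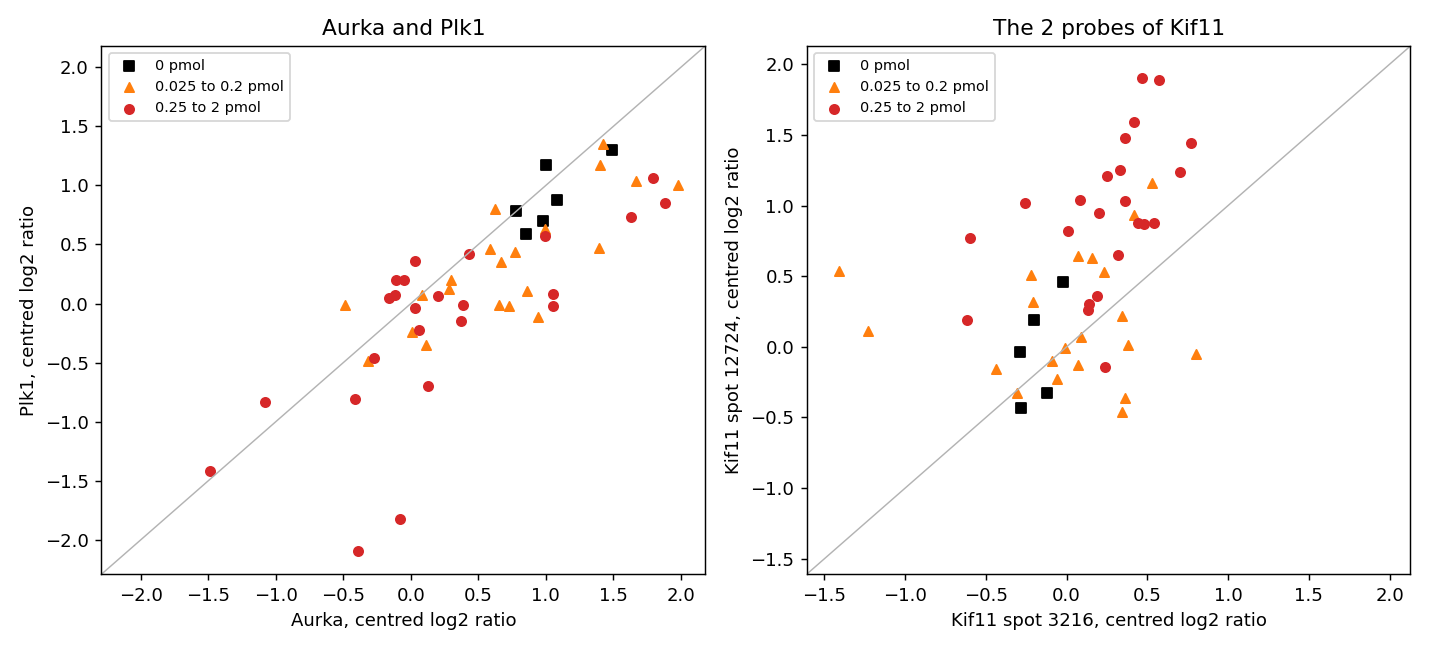
Centred log2 ratio of Plk1 against Aurka (left) and of the Kif11 probe at spot 12724 against the Kif11 probe at spot 3216 (right), 1 point per array, coloured by the range of the spiked amount. The grey line marks equal ratios. Aurka and Plk1 are correlated (r 0.78), the pair of Kif11 probes less so (r 0.39).

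The promoters of these genes are shown because many cell cycle genes carry a CHR element (TTTGAA), which is bound by the MuvB complexes that E2f4 joins, or an E2F site (here TTTCGCGC). RefSeq promoters of GRCm38.p6, 250 bases before to 50 after the gene start, were at hand for 5 of the 7 genes, all but Ccnd1 and E2f4. Both strands were searched, and the motifs do not overlap each other. The capitals mark the match, and each window is written 5′ to 3′ along the gene's strand.
Aurka, chr2:172370521-172370550, minus strand: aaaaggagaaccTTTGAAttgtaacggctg
Plk1, chr7:122159453-122159482, plus strand: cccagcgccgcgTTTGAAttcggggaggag
Kif11, chr19:37376351-37376380, plus strand: tcgtctccatttTTCAAAattgaggcgcgg
Mcm7, chr5:138171850-138171879, minus strand: tgggtgacgacgTTTCGCGCcaatttcggt
In Kif11 the element stands on the opposite strand, as TTCAAA. Of 32851 RefSeq promoters, 17.9% hold TTTGAA and 0.32% hold TTTCGCGC on either strand. The Cep97 promoter and the other promoter of Mcm7 held neither. The ratios compare channels with the same RNA, and no relation to the promoters was tested.

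Kif11 encodes the kinesin motor that pushes the spindle poles apart. Its pair of probes, listed under the same sequence accession, gave unlike values. At spot 12724 the ratios were 1.9, 1.89 and 1.48 at 2 pmol, against -0.33, -0.43, -0.04, 0.19, 0.03 and 0.46 at 0 pmol. At spot 3216 they were 0.47, 0.57 and 0.36 at 2 pmol, against -0.12, -0.28, -0.29, -0.2 and -0.02 on the 5 arrays at 0 pmol that measured it. For both probes the amounts did not overlap. The 2 pmol mean at spot 12724 was 1.76 ± 0.24 (SD, n = 3) and the 0 pmol mean -0.02 ± 0.33 (SD, n = 6). At spot 3216 the 2 pmol mean was 0.47 ± 0.11 (SD, n = 3) and the 0 pmol mean -0.18 ± 0.12 (SD, n = 5).

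The probe at spot 12724 was the only one of the 8 with a positive slope past the threshold. Its means were 0.16 (0.025 pmol), 0.06 (0.05), 0.16 (0.1), 0.45 (0.15), 0.22 (0.2), 0.91 (0.25), 0.84 (0.5), 0.64 (0.75) and 1.4 (1). The 3 lowest amounts lay near the array median and the highest means were at 1 and 2 pmol. The slope was 0.20 ± 0.05 (SE, n = 42, limma adjusted p 0.00338) and the level 0.53 ± 0.08 (SE, limma adjusted p 1.25e-07). The 8 probes printed around it had levels of -0.48 to 0.19 and slopes of -0.16 to 0.08. Its paired spots correlated at 0.97.

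The probe at spot 3216 had a level of 0.10 ± 0.07 (SE, n = 41, limma adjusted p 0.281) and a slope of 0.03 ± 0.05 (SE, limma adjusted p 0.663), and neither passed. Its paired spots correlated at 0.35, the lowest of the 8 probes. On the 49 arrays that measured both, the probe at spot 12724 was the higher one on 35. These were 22 of 23 arrays at 0.25 pmol and above, and 13 of 26 at 0.2 pmol and below, with the 0 pmol arrays included. The difference between the probes was not tested.

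Cep97 encodes a protein that, with Cp110, caps centrioles and holds back the growth of cilia. Its ratios were 0.69, 0.65 and -0.3 at 2 pmol, against 0.87, 4.69, 0.66, 0.47, 0.89 and 2.57 at 0 pmol. The amounts overlapped, with 2 arrays at 0 pmol far above the rest. The 2 pmol mean was 0.35 ± 0.56 (SD, n = 3) and the 0 pmol mean 1.69 ± 1.65 (SD, n = 6), with a 0 pmol median of 0.88. The value of 4.69 in replicate 2 rested on 1 spot, and that of 2.57 in replicate 6 came from spots at 3.27 and 1.88.

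Over the spiked arrays, the means of Cep97 were 0.91 (0.025 pmol), 0.6 (0.05), 0.27 (0.1), 0.26 (0.15), -0.08 (0.2), 0.32 (0.25), -0.6 (0.5), 0.27 (0.75) and -0.66 (1). At 0.5 pmol, replicates 5 and 6 stood apart with -2.07 and -1.87. Replicate 5 rested on 1 spot, since the other held the upper limit of the deposited values, 16.61, and was treated as missing. The slope was -0.21 ± 0.06 (SE, n = 42, limma adjusted p 0.00923), and with that spot kept it was -0.10 (limma adjusted p 0.555). The level was 0.15 ± 0.09 (SE, limma adjusted p 0.164), and without 0.5 pmol replicate 5 or 6 it passed at 0.20 (limma adjusted p 0.0379 and 0.0497).

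Set side by side, the 8 probes differed in their ratio without spike and in their response. On the arrays without spike, E2f4, Mcm7, Aurka, Plk1 and Cep97 were positive on every array, 5 of 8 probes, where 16.4% of all probes were. Between 2 and 0 pmol, 6 of the 8 did not overlap, 3 with the 2 pmol arrays above and 3 below, and over all probes 29.0% did not; these arrays chose most of the genes. The members with a negative slope had positive means at 0 pmol (0.13 to 1.69). Their means lay between -1.78 and -0.65 at 1 pmol, on the arrays that missed the most spots. At 2 pmol their means were 0.35 (Cep97), 0.22 (Aurka), -0.06 (Plk1) and -0.74 (Ccnd1), each above its mean at 1 pmol. The Kif11 probe at spot 12724 had a mean near 0 without spike. E2f4 had a small positive mean without spike, a high level at every amount, and no slope past the threshold.

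The slopes depended on how the arrays were treated. Arrays were grouped into 6 sets by a Ward clustering of their ratios over probes with an absolute mean ratio under 1. The cell cycle probes other than E2f4 were among these, so the sets were drawn from the ratios that the fit then tests. A set factor of this kind can take up a response to the amount. Amounts were spread unevenly over the sets, with all 1 pmol arrays in 1 of them. With the set as a factor, 0 of the 8 slopes passed in limma, where 116 of all 7920 probes did. With 1 mean per amount in place of the arrays 0 of the 8 passed too, where 7 of all 7920 did. In those fits the slope of the Kif11 probe at spot 12724 was 0.09 and 0.21 (limma adjusted p 0.424 and 0.0945), and that of Plk1 was -0.08 and -0.31 (limma adjusted p 0.493 and 0.117). Aurka had -0.10 and -0.23 (limma adjusted p 0.392 and 0.153), Cep97 -0.19 and -0.24 (limma adjusted p 0.199 and 0.0943) and Ccnd1 -0.11 and -0.16 (limma adjusted p 0.257 and 0.176).

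Within the 6 sets of 5 to 9 arrays, the slope of the Kif11 probe at spot 12724 ran from -0.16 to 1.25 and was positive in 4. That of Plk1 ran from -0.46 to 1 and was negative in 3. Those of Aurka (-0.29 to 0.65), Cep97 (-0.99 to 0.32) and Ccnd1 (-0.5 to 0.02) were negative in 4 sets each. A set held only 2 to 4 amounts, so these slopes are poorly determined. The highest slopes of this Kif11 probe, Plk1, Aurka and Cep97 all came from the set of 5 arrays. That set spanned only 0.15 to 0.25 pmol. With replicates 4 to 6 only, 0 of the 8 slopes passed, and 0 of all 7920 did. Without the 1 pmol arrays 2 of the 8 passed, those of the Kif11 probe at spot 12724 (0.17) and Cep97 (-0.19). Over all 7920 probes 1172 passed in that fit. The set of arrays and the amount are partly confounded, and their parts in the slopes were not tested further.

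**Figure D4:**
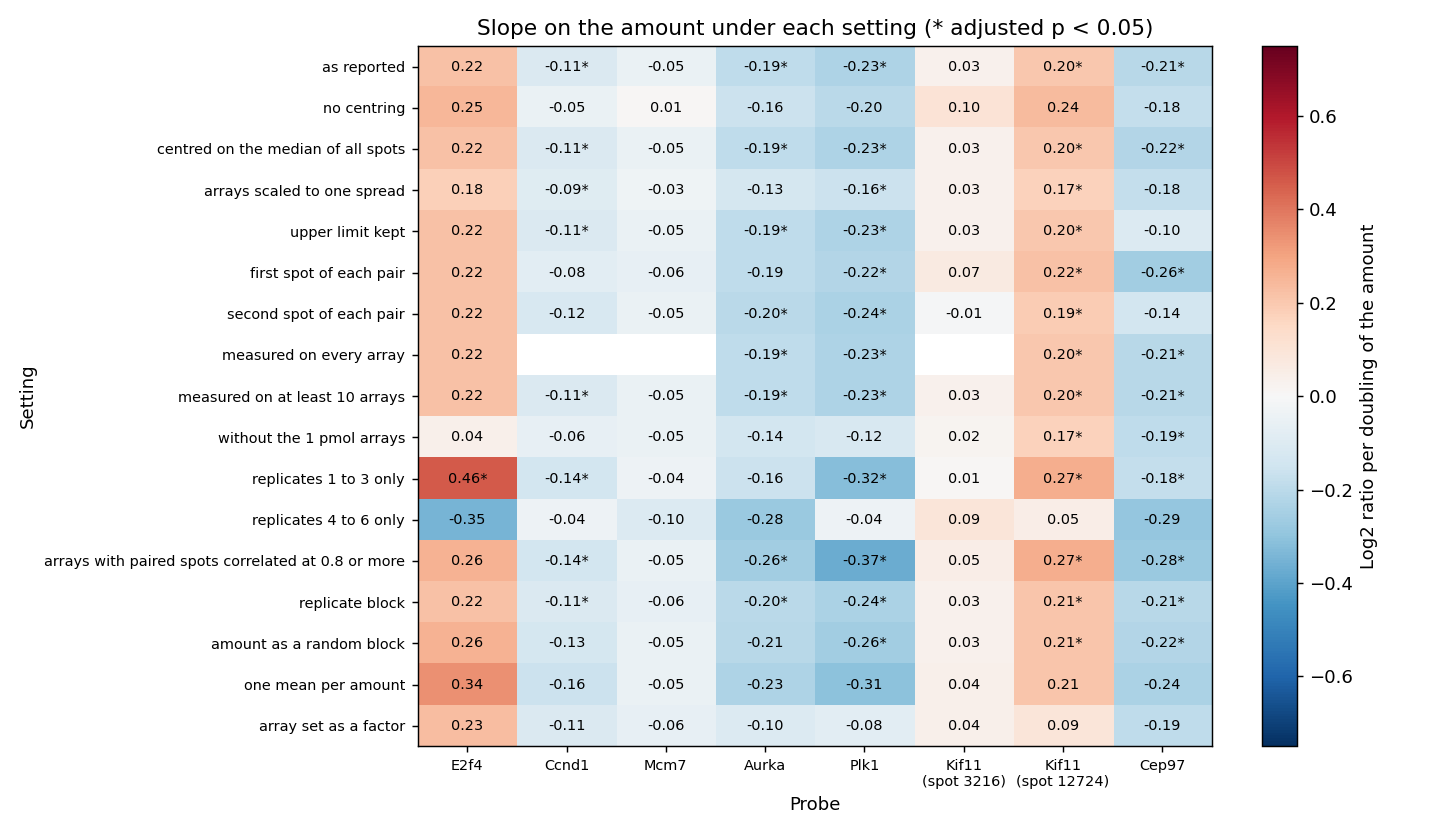
Slope on the amount (log2 ratio per doubling) for each of the 8 probes (columns) under each setting (rows), with an asterisk where the adjusted p in limma was under 0.05 and blanks where a probe was not measured on every array. The slope of the Kif11 probe at spot 12724 is positive in all rows, 0.05 to 0.27, and those of Plk1, Aurka, Cep97 and Ccnd1 are negative in all rows, while the settings under which they passed differ.

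Signs of a level are relative to the median of the array. Without centring, the median level of all probes was -1.36, and of the 8 levels all but that of E2f4 were negative, those of Aurka at -0.83, of Mcm7 at -1.07 and of the Kif11 probe at spot 12724 at -0.77 among them. E2f4 was at 4.54. Relative to the median of -1.36 these 3 remained higher.

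Other probes followed the same arrays. For each of the 8, the probe with 1 gene symbol that had the highest Pearson correlation over the arrays was taken, out of 5330 to 5342 compared. E2f4 was most like Maml3, a Mastermind coactivator of Notch (r 0.91, 51 arrays), and Aurka most like Dbr1, the enzyme that opens intron lariats (r 0.93, 51 arrays), which lies in the same print block. The Kif11 probe at spot 12724 was most like Cacna1b, a calcium channel subunit printed in the same block (r 0.89, 51 arrays), and Plk1 most like the homeobox factor Meis2 (r 0.88, 51 arrays). Mcm7 was nearest to the semaphorin receptor Plxna2 (r 0.78, 50 arrays), and Ccnd1 to the laminin chain Lama4 (r 0.78, 50 arrays). Cep97 was nearest to the vesicle tethering protein Trappc6a (r 0.74, 51 arrays) and the Kif11 probe at spot 3216 to the growth regulator Tsc2 (r 0.66, 49 arrays). By rank, Spearman's rho was only 0.38 for Cep97 and Trappc6a and 0.59 for Ccnd1 and Lama4. For the other pairs it was 0.67 to 0.93. All of these pairs share the arrays and their centring, and each was picked as a maximum.

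The neighbours in this sense did not all have the values of their partners. Maml3 had a level of 3.57 and a slope of 0.12 that did not pass (limma adjusted p 0.617), as with E2f4. Cacna1b had a slope of 0.20 (limma adjusted p 0.00399), as steep as that of the Kif11 probe in the same print block, but a level of 0.2. It was not among the 8 probes printed around that Kif11 probe. Meis2 had a 0 pmol mean of 1.14 and a slope of -0.41 (limma adjusted p 0.000918), with a mean of -1.52 at 2 pmol, where Plk1 had -0.06.

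A list of 116 other cell cycle genes was read in the same way, and 30 of them were on the array with 37 probes. The level passed for 16 probes, 43.2%, of which 5 were positive and 11 negative, with a median of -0.11 against -0.08 over all probes. The slope passed for 4, 10.8%, of which 2 were positive and 2 negative, with a median of -0.02 against -0.01. Both shares were below those of all probes, 48.8% and 18.8%.

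By role, the positive levels lay in the lists of kinase inhibitors, replication and spindle. Cdkn2b, an inhibitor of Cdk4 and Cdk6, had a level of 3.54 ± 0.20 (SE), the highest of the list. Its mean was 5.65 at 2 pmol and -0.27 at 0 pmol, and its slope of -0.03 did not pass (limma adjusted p 0.899), and its means at the amounts of 0.025 to 1 pmol lay between 2.47 (0.75 pmol) and 4.79 (1 pmol). The microtubule polymerase Ckap5 followed with 1.01 ± 0.18 (SE), and the spindle pole protein Numa1 with 0.54 ± 0.07 (SE). In the replication list Mcm10 (0.46) and Gins1 (0.21) were positive.

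The lowest levels were those of the kinesin Kif20b at spot 11842, -2.76 ± 0.19 (SE), of Cdc7, the kinase that fires replication origins, -0.42 ± 0.08 (SE), and of Cdk6 at spot 1851, -0.37 ± 0.14 (SE). The other probe of Kif20b, at spot 8583, had a level of -0.34, so that, as for Kif11, probes of one gene gave unlike values. Among slopes, those of the kinesin Kif15 (0.26 ± 0.08, SE) and of the centriolar satellite protein Pcm1 at spot 6603 (0.16 ± 0.05, SE) were positive. Those of the origin recognition subunit Orc2 (-0.30 ± 0.06, SE) and of cyclin G1, Ccng1 (-0.18 ± 0.06, SE), were negative. Like Aurka and Plk1, Orc2 had a high mean at 0 pmol, 0.97, and Kif15 had a low one, -1.77. Their limma adjusted p values lay between 0.00126 and 0.0388.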

How the data were processed

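Per array and spot, the authors deposited a log2 ratio, whose base was read from the values. Background correction, filtering, normalization and the channel in the numerator are not given in the sources used here. The 1074 values at the upper limit, 16.61, were treated as missing. Paired spots of a probe, 22 positions apart, were averaged after the median of the spots that are not controls was subtracted from each array. The 528 control probes were left out, which leaves 7920 probes. Symbols came from the platform annotation, updated with RefSeq.

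A level (at the mean log2 amount) and a slope per doubling of the amount were fitted with limma 3.58.1 in R 4.3.3 (values read with data.table, version 1.17.8) over the 42 arrays of 0.025 to 1 pmol, for probes measured on at least 20, with two-sided tests and Benjamini-Hochberg adjustment at 0.05. The fit was also run on simulated data. Their noise was drawn independently for each array, without sets of like arrays, so that run does not show how the p-values behave on arrays that group. Figures used matplotlib 3.10.9 in Python 3.11.15. No pair of arrays held identical values. The number of arrays limits the precision.

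The members and lists were chosen with earlier results of these data known, among them slopes that included these 42 arrays, so no list is independent evidence. The genes named are all probes of the 7 genes, the probe most correlated with each over at least 45 shared arrays, and the 3 highest and 3 lowest levels and slopes past the threshold among the other cell cycle genes; Mcm10, Gins1 and the second Kif20b probe were chosen after their values were seen. Alternatives were centring, spread, the upper limit, the filter, single spots, subsets of arrays, blocks and leaving out each array. Fits on fewer arrays needed 14 (replicates 1 to 3, or paired spots at 0.8 or more), 8 (replicates 4 to 6) or 7 means.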

Additional observations from a re-analysis of the deposited data

Results flagged for a closer look

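In groups of 6 arrays, 48 sets of a probe and an amount were examined for an array far from the others by Dixon's criterion, and 5 were so; chance gives about 1 in 20. E2f4 was at 7.97 on 0.05 pmol replicate 6, with the others at 5.32 to 5.84. It was at 4.29 on 0.25 pmol replicate 3, with the others at 6.12 to 6.99, and the paired spots of that array read 6.13 and 2.45. On 0.75 pmol replicate 4, E2f4 was at 4.37, with the others at 6.82 to 7.5, and Cep97 was at -0.61, with the others at 0.33 to 0.59; on that array paired spots agreed least. Mcm7 was at 1.52 on 0.05 pmol replicate 6, with the others at 0.21 to 0.61, the same array on which E2f4 was high.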

How the results depend on the processing

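A level passed for 3865 of 7920 probes (1373 positive, 35.5%) and a slope for 1491 (781 positive, 52.4%). The count of levels was 7821 without centring (1.8% positive), 2164 with replicates 4 to 6 only, 2262 with 1 mean per amount, and 1891 of 3786 probes measured on every array (62.6% positive). The count of slopes was 49 without centring (75.5% positive), 885 with arrays scaled to one spread, 954 over probes measured on every array, 2265 with replicates 1 to 3 only and 2374 with the 31 arrays whose paired spots correlated at 0.8 or more. It was 485 with the amount as a random block, 116 with the array set as a factor and 7 with 1 mean per amount. With replicates 4 to 6 only it was 0 in limma, with 1267 at an unadjusted p under 0.05. The other alternatives kept both counts within 1.5 times, but without the 1 pmol arrays the slopes were 775 positive and 397 negative (66.1% positive), against 710 negative with them. Fewer arrays or values enter several of these fits; the cause was not tested otherwise. Leaving out single arrays gave 3755 to 3991 levels and 891 to 1611 slopes, the 891 without 0.025 pmol replicate 2.

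The levels that passed with the opposite sign did so without centring: Aurka -0.83, Cep97 -1.15, Mcm7 -1.07, Plk1 -1.23, and Kif11 -1.18 at spot 3216 and -0.77 at spot 12724. The level of Plk1, which did not pass at 0.08, was -0.01 with paired spots at 0.8 or more and with 1 mean per amount. E2f4 passed for the level under all 16 alternatives (4.54 to 5.93). Without centring 79 of the 88 means by amount moved by more than their SD, and under each other setting at most 7 did. The level of Ccnd1 passed in 5 of 15 and its slope was lost without 1 pmol replicate 1 or 3. With 1 mean per amount 2 of the 8 levels passed, and those of Aurka (0.38, limma adjusted p 0.0841) and Mcm7 (0.21, limma adjusted p 0.106) did not. Slopes passed in 12 of 16 alternatives for the Kif11 probe at spot 12724, 11 for Plk1, 9 for Cep97 and 7 for Aurka.

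Whether shared replicate numbers pair the arrays was not settled. The deviations of arrays with the same number correlated at -0.49 to 0.65, with a median of 0.0, as for different numbers. Of 51 arrays, 16 correlated best with their own number, and the count given by chance was not computed. Matching by single numbers cannot show a split between replicates 1 to 3 and replicates 4 to 6. Within each of 0.05, 0.1, 0.25, 0.5 and 0.75 pmol, no array set held arrays from both sides of that split. With the replicate number as a block, 3805 levels and 1472 slopes passed, and of the 8 probes only the level of Ccnd1 changed its call (-0.12, limma adjusted p 0.0734).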
